A study of Homo sapiens with 16 samples.

Results

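The thrombospondins and other matricellular proteins were followed as 10 genes: the thrombospondin genes THBS1, THBS2, THBS3 and COMP (thrombospondin-5), the counter-adhesive genes SPARC and TNC, the periostin gene POSTN, the CCN genes CCN1 (CYR61) and CCN2 (CTGF), and the fibulin gene FBLN1. They were chosen by name, with earlier results of these data known. Their transcript values were summed by gene in the deposited table, where all 10 were found among 19356 protein-coding genes and 34451 genes in all. Matricellular proteins are secreted into the extracellular matrix but act less as scaffold than as regulators, binding integrins, growth factors and collagen fibres and so changing adhesion, migration and growth factor activity. THBS1 activates latent TGF-beta and blocks angiogenesis through CD36 and CD47, while CCN1, CCN2 and THBS1 are themselves well-known targets of the TGF-beta and YAP/TEAD pathways in fibroblasts. Fibroblasts are a main source of these proteins in wounds and in tumor stroma.

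Expression was profiled by stranded poly-A RNA-seq in the isogenic BJ fibroblast model of malignant transformation, which has 4 stages grown at 2 oxygen levels, with 2 libraries per group and 16 libraries in all. The question was how these genes differ between stages and how each stage responds to moderate hypoxia. The primary stage is the human fibroblast line BJ, the immortalized stage is BJ hTERT+, which expresses the catalytic subunit of telomerase, the transformed stage is BJ hTERT+ SV40+, which adds the SV40 Large-T oncogene, and the metastasizing stage is BJ hTERT+ SV40+ Ras-G12V, which adds mutated H-Ras. Every stage was grown for 6 passages in the same serum-supplemented medium, at atmospheric oxygen or at 3% oxygen. Each stage is 1 line, so a stage cannot be told apart from the history of its line. The replicates, a and b, are duplicate plates grown in parallel, so p-values measure only the spread between such plates. Values are TPM, a transcript abundance scaled for length so that every library has the same total, and the depth behind a value is therefore unknown. In such bulk RNA, fewer cells of a kind and less RNA per cell cannot be told apart.

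The labels and libraries were checked first. In primary cells TERT was at 0 in each atmospheric library and at 0.0370 and 0.543 TPM at 3% oxygen, against 31.6 to 193 TPM in the later stages. HRAS was at 94.6 and 78.1 TPM in the atmospheric libraries labelled metastasizing and at 119.8 and 99.0 TPM in the transformed ones, and since summed TPM do not separate the mutated allele, this label was not checked here. At 3% oxygen the metastasizing libraries stood apart: HRAS was at 143 TPM in replicate a and 772 TPM in replicate b, and 11% of genes of at least 1 TPM differed more than 2-fold between the replicates, against 1.83% to 4.08% in the other groups. Fits without this group, called the divergent group below, were added after the data were seen and are given where they change a call. All 13 fibroblast markers were found and 12 reached 1 TPM in every library, but their summed level was 18167 to 26192 TPM in primary and immortalized cells and 4819.7 to 7627 TPM in transformed and metastasizing cells. Markers of epithelial, blood and muscle cells summed to at most 3.95 TPM in any library. The 4 endothelial markers in the table summed to at most 1.51 TPM except in metastasizing cells at 3% oxygen, where TIE1 alone reached 4.73 and 19.9 TPM while VWF, CDH5 and CLDN5 were at most 0.291 TPM. The part of these marker levels in the results below was not tested.

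Promoter sequences are shown for CCN2, THBS1 and THBS2, because CCN2 and THBS2 carry more than 1 match to CATTCC, the core letters that TEAD factors bind, and because CCN2 and THBS1 differed most between the replicates of the divergent group. Each is the 250 bases before the start of the gene from RefSeq on GRCh38.p14, written 5′ to 3′ on the strand of the gene, with CATTCC or its reverse complement GGAATG in capitals.
CCN2 (chr6:131951373-131951622, minus strand): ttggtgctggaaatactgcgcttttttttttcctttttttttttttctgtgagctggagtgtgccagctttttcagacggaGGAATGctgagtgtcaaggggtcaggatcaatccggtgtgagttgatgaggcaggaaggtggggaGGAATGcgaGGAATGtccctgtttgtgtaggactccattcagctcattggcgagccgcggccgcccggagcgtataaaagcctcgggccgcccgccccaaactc
THBS1 (chr15:39580829-39581078, plus strand): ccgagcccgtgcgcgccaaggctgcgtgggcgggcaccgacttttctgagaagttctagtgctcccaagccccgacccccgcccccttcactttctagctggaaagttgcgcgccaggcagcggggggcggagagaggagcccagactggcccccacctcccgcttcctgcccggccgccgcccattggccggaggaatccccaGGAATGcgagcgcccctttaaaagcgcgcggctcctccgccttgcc
THBS2 (chr6:169253847-169254096, minus strand): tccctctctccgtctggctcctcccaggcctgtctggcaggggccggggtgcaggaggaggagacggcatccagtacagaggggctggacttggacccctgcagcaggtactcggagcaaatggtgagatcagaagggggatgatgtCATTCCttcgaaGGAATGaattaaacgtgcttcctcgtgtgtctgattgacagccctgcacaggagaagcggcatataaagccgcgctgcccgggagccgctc

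RefSeq promoters were matched for 9 of the 10 members, all but CCN1. CATTCC was searched on both strands and found in 11.9% of 35116 human promoters of the same length. CCN2 held 3 matches, starting 169, 104 and 95 bases before the start, THBS2 held 2, at 103 and 91 bases, and THBS1 held 1, at 46 bases. COMP and SPARC held 1 match each, and the other 4 members held none. The TATA letters TATAAA, present in 10.7% of promoters, were found in CCN2, THBS2 and POSTN. The hypoxia-response core ACGTG or GCGTG, present in 43.2% of promoters, was found in THBS1 and THBS2 only, and the CArG box, present in 1.16%, in no member. A match of one motif may share bases with a match of another, and these matches of letters say nothing of binding.

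The 10 genes spanned a wide range of levels. By mean TPM over the 16 libraries, SPARC ranked 34 and THBS1 143 among protein-coding genes, CCN1 165, FBLN1 255, TNC 295 and CCN2 297, followed by THBS2 at 1401, THBS3 at 6864, POSTN at 7643 and COMP at 11160. Together they held 1.14% and 1.06% of all TPM in primary cells at atmospheric oxygen and 0.273% and 0.254% in transformed cells at 3% oxygen, the lowest group. The highest group mean was that of primary cells at atmospheric oxygen for 7 members, of immortalized cells at atmospheric oxygen for TNC and FBLN1, and of metastasizing cells at 3% oxygen for CCN1, where 1 library set the order. Ordered by mean, neighbouring groups overlapped in 1 of 7 steps for THBS1, in 2 of 7 for THBS2, SPARC, POSTN, CCN2 and FBLN1, and in 4 to 6 of 7 for THBS3, CCN1, COMP and TNC. The same count was not made over all genes, so it cannot be read as particular to the members. For COMP and POSTN some of these steps lie between means below 1 TPM.

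**Figure D1:**
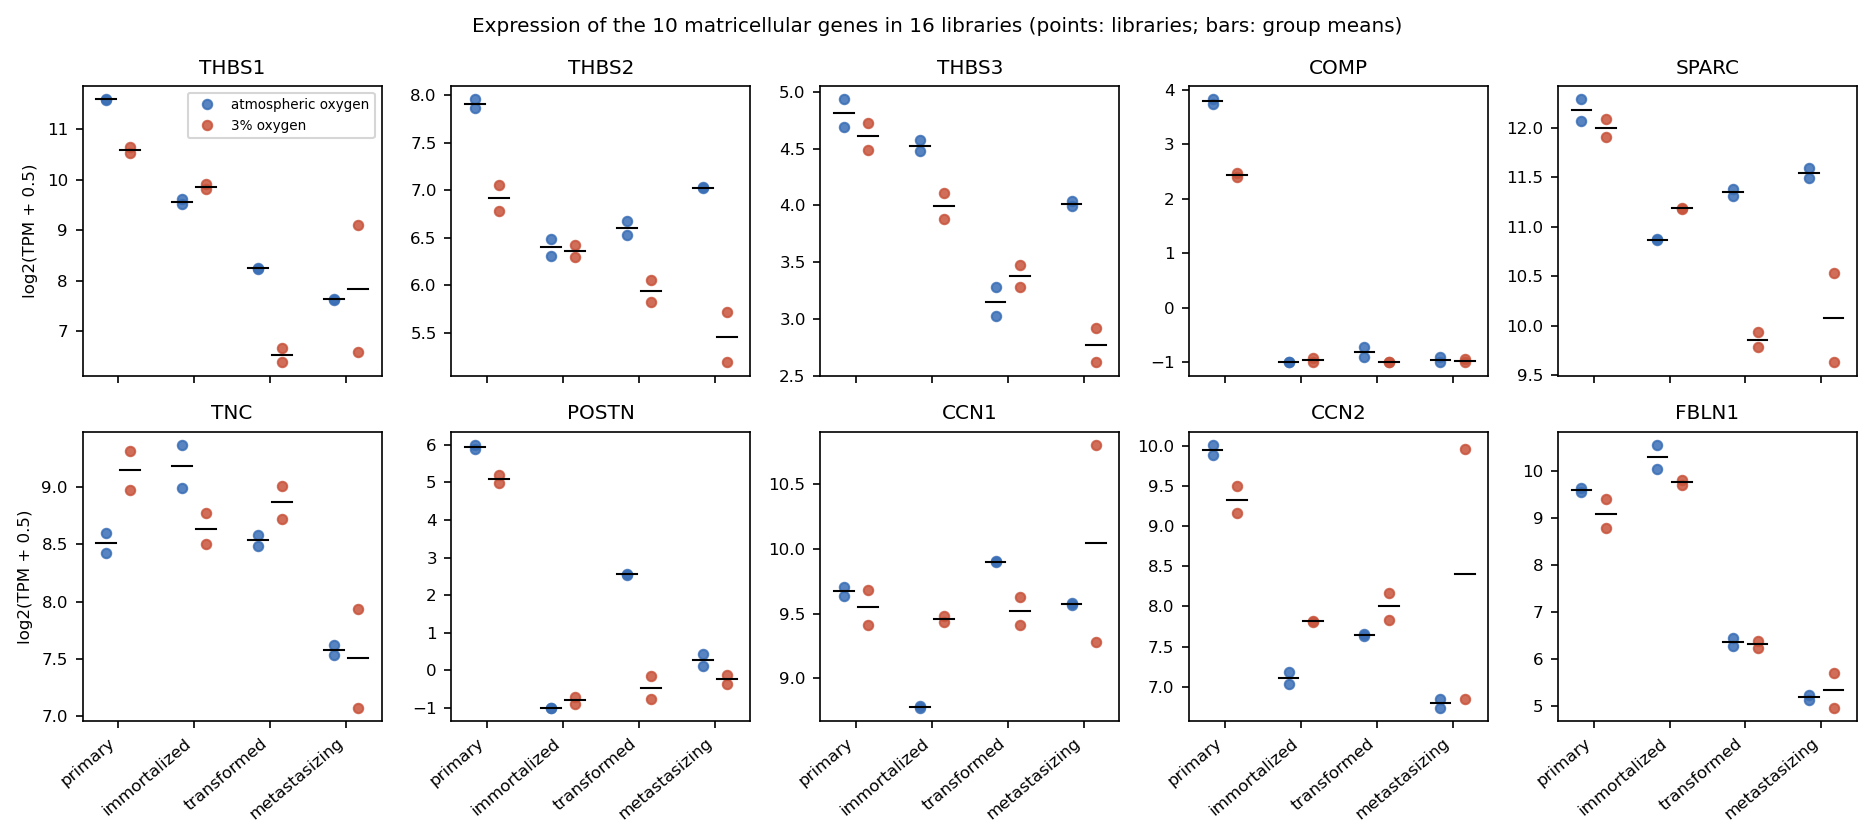
Expression of each of the 10 genes on the log2(TPM + 0.5) scale (y axis, own range per panel) over the 4 stages (x axis), with 1 point per library in blue for atmospheric and red for 3% oxygen, and a black bar at the mean of each group of 2 libraries. THBS1 was at 3106 and 3089 TPM in primary and 196 and 199 TPM in metastasizing cells at atmospheric oxygen, and the 2 red points of metastasizing cells lie far apart for THBS1, CCN1 and CCN2.

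A change was called at a limma adjusted p under 0.01 over all protein-coding genes tested and a log2 fold change beyond 1, and a gene was tested where its mean reached 1 TPM in one of the groups compared. Of 89 member changes tested in 10 comparisons of 2 groups, 22 were called, 21 lower and 1 higher, and CCN1 alone was called in none. In every POSTN call and in the COMP calls between stages, 1 of the groups was below 1 TPM. Such a gene was tested only through its higher group, so the filter fixed the direction. These calls include the only rise and all those from primary to immortalized cells at 3% oxygen. The paper's hDEGs (between oxygen levels) and DEGs (between stages) were called with edgeR, so the limma counts given here are not its counts. Between oxygen levels, 1 of 10 members tested was called in primary cells, lower, where 5.30% of all genes tested were called in either direction and 2.52% lower. No member of the 8 tested was called in immortalized cells, where the share of all genes was 4.91%, and limma gave an unadjusted p under 0.05 for 2 of the 8, THBS3 and TNC, and for 4749 of all 12049 genes tested. In transformed cells 2 of 9 were called, both lower, against 7.48% (2.58% lower), and in metastasizing cells 3 of 8, all lower, against 7.66% (4.60% lower). Between stages at atmospheric oxygen, 5 of 10 members were called from primary to immortalized cells, all lower, against 12.2% of all genes (6.26% lower). From immortalized to transformed cells 3 of 9 were called, 1 higher and 2 lower, against 24.3% (13.2% higher and 11.2% lower), and from transformed to metastasizing cells 2 of 9, both lower, against 4.12% (1.72% lower). At 3% oxygen the counts for the same steps, all lower, were 2 of 10 against 9.23% (5.04% lower), 3 of 8 against 16.3% (7.38% lower) and 1 of 8 against 5.92% (3.93% lower). Comparisons that share libraries are not independent of each other. The median change of the members was -1.41 on the log2 scale from primary to immortalized cells at atmospheric oxygen, beside -0.09 over all genes tested, and lay between -0.68 and 0.21 in the other 9 comparisons.

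**Figure D2:**
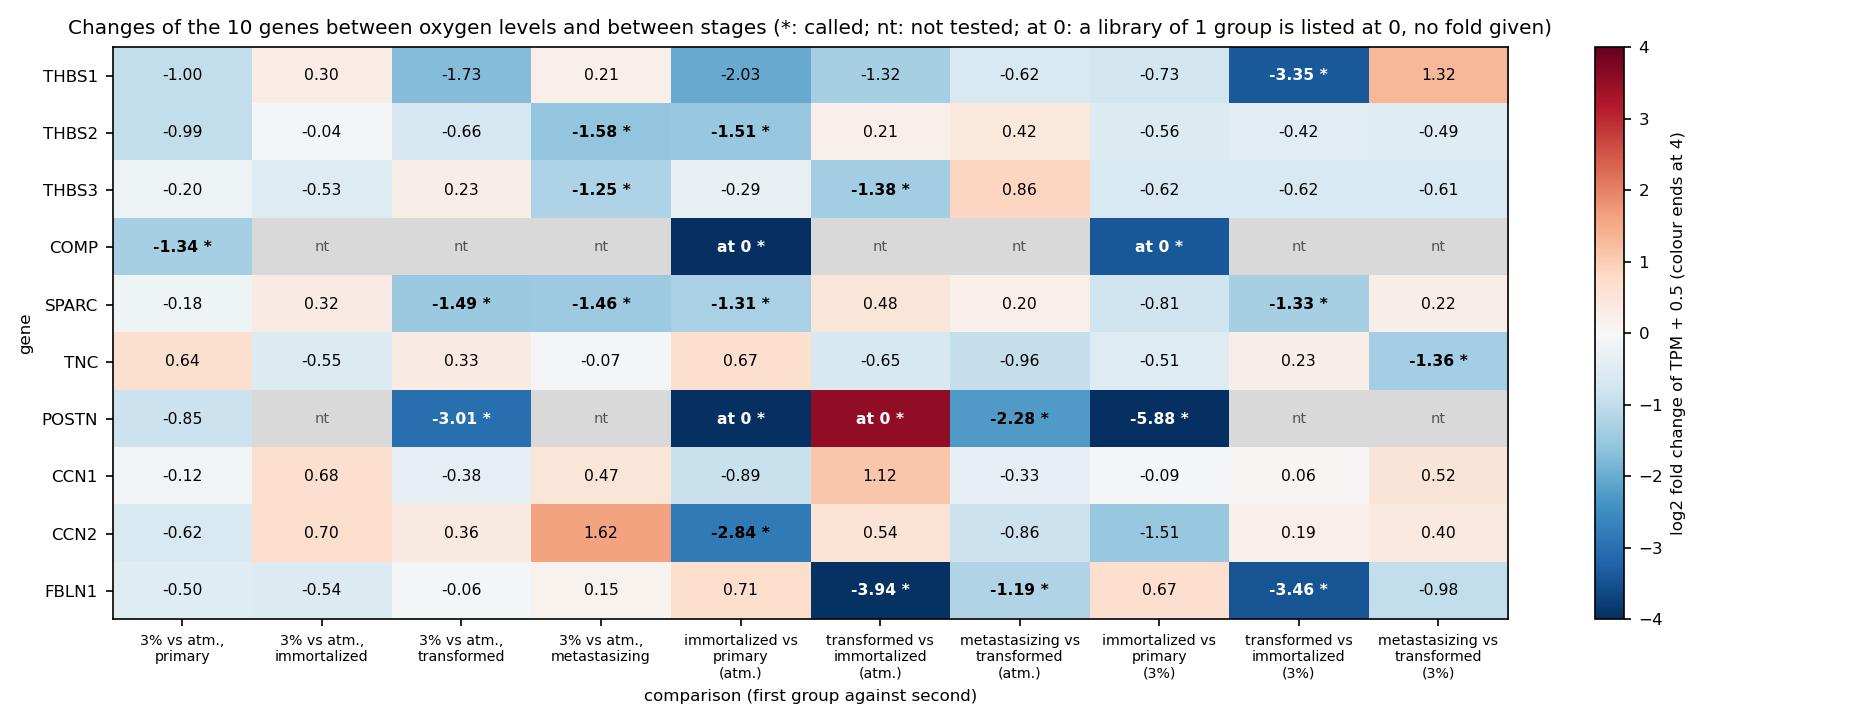
Log2 fold change of TPM + 0.5 for each gene (rows) in each comparison (columns, first group against second), with colour from blue (lower) to red (higher) an asterisk where the change was called, nt where it was not tested and "at 0" where a library of 1 group was listed at 0. Of the 22 asterisks, 21 stand on lower values, and the exception is POSTN from immortalized to transformed cells at atmospheric oxygen.

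Thrombospondin genes. THBS1 (ENSG00000137801, chr15:39873280-39891667, plus strand, GRCh37), the trimeric thrombospondin that restrains angiogenesis, was lower at each later stage at atmospheric oxygen. Its levels were 3106 and 3089 TPM in primary, 788 and 731 TPM in immortalized, 301 and 305 TPM in transformed and 196 and 199 TPM in metastasizing cells. No library of a later stage overlapped those of the stage before. The last of these steps, to metastasizing cells, was not called (log2 fold change -0.62 ± 0.55 SE, limma adjusted p = 0.472). At 3% oxygen the levels were 1488 and 1616 TPM in primary, 962 and 903 TPM in immortalized, 101 and 82.5 TPM in transformed, and 550.1 and 94.8 TPM in metastasizing cells. The step from immortalized to transformed cells at 3% oxygen was called, with a mean TPM 10.2-fold lower (log2 fold change -3.35 ± 0.55 SE, limma adjusted p = 0.000583). The oxygen difference in transformed cells, where both 3% libraries lay below both atmospheric ones, was not called (-1.73 ± 0.55, adjusted p = 0.0313), nor was the step from primary to immortalized cells at atmospheric oxygen (-2.03 ± 0.55, adjusted p = 0.0138). Without the metastasizing libraries at 3% oxygen, whose replicates differ 5.80-fold for THBS1, both passed (adjusted p = 2.02e-06 and 1.88e-07). So did the step from immortalized to transformed cells at atmospheric oxygen (-1.32, adjusted p = 1.06e-06, against 0.0592 with all libraries). In the same order, array weights by group gave 0.000656, 8.81e-05 and 0.000348, and fitting only the groups compared gave 0.00504, 0.00125 and 0.000474. Of 13 alternatives that left out no single library, these 3 changed each call. In the primary stage THBS1 was 2.00-fold lower at 3% oxygen, just short of the required fold, and the adjusted p was 0.202 with all libraries and 4.71e-05 without that group.

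THBS2 (ENSG00000186340, chr6:169615875-169654145, minus strand), the closest relative of THBS1 and also anti-angiogenic, was highest in primary cells at atmospheric oxygen, at 248 and 232 TPM. It was at 78.7 and 89.0 TPM in immortalized, 102 and 91.6 TPM in transformed and 130.3 and 129 TPM in metastasizing cells at atmospheric oxygen. With 3% oxygen it was at 132 and 109 TPM in primary, 85.4 and 77.9 TPM in immortalized, 66.1 and 56.0 TPM in transformed and 35.9 and 51.9 TPM in metastasizing cells. The oxygen levels thus overlapped in immortalized cells only. The oxygen difference was called in metastasizing cells (log2 fold change -1.58 ± 0.16, adjusted p = 8.57e-05) and missed the fold threshold in primary cells (-0.99 ± 0.16, adjusted p = 0.00152) and in transformed cells (-0.66 ± 0.16, adjusted p = 0.00944). From primary to immortalized cells at atmospheric oxygen it was 2.86-fold lower in mean TPM (-1.51 ± 0.16, adjusted p = 4.11e-05).

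THBS3 (ENSG00000169231, chr1:155165379-155178842, minus strand), a pentameric thrombospondin, was expressed at a far lower level. It was at 30.1 and 25.3 TPM in primary, 23.3 and 21.8 TPM in immortalized, 7.63 and 9.19 TPM in transformed and 15.9 and 15.4 TPM in metastasizing cells at atmospheric oxygen. Under 3% oxygen it was at 26 and 22.0 TPM, 14.2 and 16.7 TPM, 10.6 and 9.19 TPM, and 5.63 and 7.07 TPM over the same stages. Transformed cells were low at both oxygen levels and metastasizing cells at 3% oxygen were lowest of all. THBS3 was called lower from immortalized to transformed cells at atmospheric oxygen (-1.38 ± 0.16, adjusted p = 3.29e-05) and at 3% oxygen in metastasizing cells (-1.25 ± 0.16, adjusted p = 0.000359). The oxygen call in metastasizing cells was lost with array weights by group (adjusted p = 0.0130). The oxygen effect of metastasizing cells differed from that of transformed cells by -1.47 ± 0.23 (adjusted p = 0.00130), a call lost when only the groups compared were fitted (adjusted p = 0.0219). For this difference 2 of 9 members were called, THBS3 lower and POSTN higher, against 8.47% of all genes (2.84% higher and 5.62% lower), but POSTN was below the 1 TPM limit in metastasizing cells.

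COMP (ENSG00000105664, chr19:18893583-18902114, minus strand), the cartilage oligomeric matrix protein that assembles collagen fibrils, was a gene of the primary stage. It was at 12.9 and 13.7 TPM at atmospheric oxygen and at 5.08 and 4.81 TPM at 3% oxygen in primary cells. In the 12 libraries of the later stages it was listed at 0 to 0.106 TPM, and at 0 in both immortalized libraries at atmospheric oxygen, so no fold is given for the steps to the immortalized stage, which were called lower at both oxygen levels (adjusted p = 1.89e-08 at atmospheric and 2.65e-07 at 3% oxygen). Within primary cells the 3% libraries were called lower (-1.34 ± 0.17 on the log2(TPM + 0.5) scale, adjusted p = 0.000442), a ratio of 2.68 in mean TPM. This call was lost with a pseudocount of 0.1 TPM (adjusted p = 0.0209) and when only the primary libraries were fitted (adjusted p = 0.0120).

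Counter-adhesive proteins. SPARC (ENSG00000113140, chr5:151040657-151066536, minus strand), a collagen-binding glycoprotein of remodelling tissue, was the most abundant member. At atmospheric oxygen it was at 5005 and 4283 TPM in primary, 1867 and 1872 TPM in immortalized, 2545 and 2664 TPM in transformed and 3083 and 2888 TPM in metastasizing cells. Its levels at 3% oxygen were 3829 and 4362 TPM, 2341 and 2317 TPM, 978 and 881 TPM, and 791 and 1483 TPM over the same stages. The oxygen levels overlapped in primary cells, the 3% libraries were higher in immortalized cells, and they were lower in transformed and metastasizing cells. SPARC was called lower at 3% oxygen in transformed cells (-1.49 ± 0.22, adjusted p = 0.000576) and in metastasizing cells (-1.46 ± 0.22, adjusted p = 0.000785), while primary (-0.18 ± 0.22, adjusted p = 0.574) and immortalized cells (0.32 ± 0.22, adjusted p = 0.306) were not called. The difference of the oxygen effect between transformed and immortalized cells was itself called (-1.80 ± 0.31, adjusted p = 0.00146), where 2 of 9 members, SPARC and POSTN, both lower, and 12.0% of all genes (5.84% lower) were. Between stages it was called lower from primary to immortalized cells at atmospheric oxygen (-1.31 ± 0.22, adjusted p = 0.000830) and from immortalized to transformed cells at 3% oxygen (-1.33 ± 0.22, adjusted p = 0.000598).

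Much of the SPARC sum was not on a coding transcript. The retained-intron transcript SPARC-202 held 39.9% to 48.9% of it, and SPARC-201, which codes for 303 residues, 12.7% to 22.9%. Counting coding transcripts alone, SPARC was at 1434 and 1597 TPM in transformed cells at atmospheric oxygen and 506 and 451 TPM at 3% oxygen, so both 3% libraries lay below both atmospheric ones in this count too. SPARC-201 alone was at 413 and 401 TPM against 204 and 202 TPM in the same libraries, a smaller fall than that of either sum. Values of single transcripts are estimates from reads that several forms can share.

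TNC (ENSG00000041982, chr9:117781854-117880486, minus strand), tenascin-C, a large hexameric protein that loosens adhesion and is induced in wounds and tumors, was at 387 and 344 TPM in primary, 662 and 509.8 TPM in immortalized, 382 and 359 TPM in transformed and 185 and 196 TPM in metastasizing cells at atmospheric oxygen. Its levels at 3% oxygen were 639 and 504 TPM, 437 and 362 TPM, 423 and 516 TPM, and 245 and 134 TPM. The metastasizing libraries were the lowest at both oxygen levels and overlapped none of the others. The only call was the step from transformed to metastasizing cells at 3% oxygen (-1.36 ± 0.24, adjusted p = 0.00246), with -0.96 ± 0.24 (adjusted p = 0.0187) at atmospheric oxygen. The call at 3% oxygen was lost without replicate b of transformed cells (adjusted p = 0.0234) and without replicate b of metastasizing cells, where the log2 fold change was -0.93. It was also lost when only the groups compared were fitted (adjusted p = 0.133) and with array weights by group (adjusted p = 0.0292).

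The long TNC transcripts compared were TNC-202, coding for 2201 residues, and TNC-201, coding for 2019. A shorter form, TNC-211, coding for 614 residues, held 12.9% to 39.3% of the TNC sum. In primary cells at atmospheric oxygen TNC-211 held 39.3% and 30.1%, above TNC-201 at 24.5% and 24.2%. A lower share of TNC-202 is therefore not a shift to TNC-201 alone. Among the 5 exons of TNC-202 whose bounds TNC-201 lacks are 2 of 273 bases each, at chr9:117810539-117810811 and chr9:117825196-117825468 on GRCh37, so the shares do not rest on these 2 exons alone. Exons of this length in TNC code for fibronectin type III repeats that are alternatively spliced. TNC-202 held 52.7% and 52.5% of the TNC sum in transformed and 52.1% and 51.3% in metastasizing cells at atmospheric oxygen, above the 34.1% to 43.3% in primary and immortalized cells at either oxygen level. At 3% oxygen it held 41.8% and 46.6% in transformed cells and 40.1% and 51.8% in metastasizing cells, which overlap the earlier stages. With 2 libraries per group no exact permutation test of a share can give a two-sided p below 0.33, so none is given.

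POSTN (ENSG00000133110, chr13:38136720-38172981, minus strand), periostin, which binds collagen and integrins, was also highest in primary cells, at 63.5 and 58.5 TPM at atmospheric and 31.1 and 36.2 TPM at 3% oxygen. It was listed at 0 in both immortalized libraries at atmospheric oxygen and at 0.0417 and 0.113 TPM in those at 3% oxygen. In transformed cells it was at 5.43 and 5.28 TPM at atmospheric oxygen but at 0.396 and 0.0907 TPM at 3% oxygen, and in metastasizing cells at 0.574 and 0.847 TPM against 0.42 and 0.277 TPM. Transformed cells at atmospheric oxygen were thus the one group past the primary stage above 1 TPM, and this was the one rise called among the members (adjusted p = 3.30e-07). POSTN was tested at that step only through this group, so the direction was fixed by the filter. The step from primary to immortalized cells was called lower at both oxygen levels (adjusted p = 7.29e-09 at atmospheric and 3.38e-08 at 3% oxygen), and the oxygen difference in primary cells, without overlap, was not called (-0.85 ± 0.22, adjusted p = 0.0169). From transformed cells at atmospheric oxygen, POSTN was called lower in transformed cells at 3% oxygen (-3.01 ± 0.22, adjusted p = 1.21e-05). It was also called lower in metastasizing cells at atmospheric oxygen (-2.28 ± 0.22, adjusted p = 9.15e-05). Both sizes depend on the added 0.5 TPM. Against immortalized and metastasizing cells the oxygen effect of transformed cells cannot be compared, because POSTN was below 1 TPM in every library of both stages and its oxygen effect there was not tested.

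CCN proteins. CCN2 (ENSG00000118523, chr6:132269316-132272512, minus strand), connective tissue growth factor, a mediator of fibrosis, was at 1034 and 944 TPM in primary, 131 and 145 TPM in immortalized, 202 and 198 TPM in transformed and 106 and 115 TPM in metastasizing cells at atmospheric oxygen. At 3% oxygen it was at 571 and 721 TPM in primary, 225 and 224 TPM in immortalized and 288 and 228 TPM in transformed cells. The primary libraries were above all libraries of the immortalized and transformed stages at both oxygen levels. In metastasizing cells at 3% oxygen it was at 999 TPM in replicate a and 115 TPM in replicate b, the first near primary cells and the second at the atmospheric level. The step from primary to immortalized cells at atmospheric oxygen was called (-2.84 ± 0.68, adjusted p = 0.00714), with a mean TPM 7.17-fold lower. This call was lost without any 1 of the 14 libraries outside the divergent group (adjusted p up to 0.0434), but without that group the adjusted p was 2.00e-07, and the same step at 3% oxygen then also passed (-1.51, adjusted p = 1.49e-05, against 0.118 with all libraries). The step at 3% oxygen also passed with array weights by group (adjusted p = 0.00160) and when only the groups compared were fitted (0.00270).

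CCN1 (ENSG00000142871, chr1:86046444-86050272, plus strand), an early-response gene whose product binds integrins, was at 796 and 833 TPM in primary, 441 and 437 TPM in immortalized, 959 and 952 TPM in transformed and 766 and 756 TPM in metastasizing cells at atmospheric oxygen. Its levels at 3% oxygen were 681 and 821 TPM, 716 and 692 TPM, 792 and 680.3 TPM, and 1784 and 622 TPM. Immortalized cells at atmospheric oxygen were the lowest group, below every other library. No change was called in the fit of all libraries, where CCN1 was at 1.12 ± 0.34 (adjusted p = 0.0149) from immortalized to transformed cells at atmospheric oxygen. That step was called without the divergent group (adjusted p = 4.03e-06) and, with all libraries, under quantile normalization (0.00934) and array weights by group (5.04e-05), as it was when only the groups compared were fitted (0.000451).

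Fibulin. FBLN1 (ENSG00000077942, chr22:45898118-45997015, plus strand), fibulin-1, which binds fibronectin and elastic fibres, marked the step to transformed cells. It was at 755 and 794 TPM in primary and 1059 and 1515 TPM in immortalized cells at atmospheric oxygen, against 86.9 and 77.2 TPM in transformed and 36.8 and 34.4 TPM in metastasizing cells. At 3% oxygen it was at 675 and 443 TPM, 901 and 838 TPM, 74.8 and 82.8 TPM, and 30.4 and 51.4 TPM. Every library of the first pair of stages lay above every library of the last pair. From immortalized to transformed cells the mean TPM was 15.7-fold lower at atmospheric oxygen (-3.94 ± 0.25, adjusted p = 3.35e-07) and 11-fold lower at 3% oxygen (-3.46 ± 0.25, adjusted p = 1.53e-06). A further fall to metastasizing cells was called at atmospheric oxygen (-1.19 ± 0.25, adjusted p = 0.00713) and not at 3% oxygen (-0.98 ± 0.25, adjusted p = 0.0141). The atmospheric call was lost without any 1 of 10 libraries, with an adjusted p of up to 0.0575. The oxygen effect was called in no stage, with log2 fold changes of -0.54 to 0.15. The fibroblast markers moved with the step to transformed cells, where 8 of 13 were called lower at atmospheric and 9 of 13 at 3% oxygen and none higher, against 11.2% and 7.38% of all genes called lower, and their part in the fall of FBLN1 was not tested.

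The leading splice form of FBLN1 also differed between groups. FBLN1-202, coding for 703 residues, and FBLN1-201, coding for 683, share 14 exons and differ at their ends. FBLN1-202 held 65.3% and 65.2% of the FBLN1 sum in immortalized cells at 3% oxygen and FBLN1-201 25.8% and 23.6%. In both transformed libraries at atmospheric oxygen the order was the other way around, with 32.4% and 35.6% for FBLN1-202 and 59.4% and 55.4% for FBLN1-201, whereas transformed cells at 3% oxygen had 57.1% and 54.2% against 34.2% and 37.1%. In primary cells at atmospheric oxygen the replicates split, with FBLN1-201 at 44% and 48.8% and FBLN1-202 at 51.0% and 46.5%, and so did metastasizing cells at 3% oxygen, with 17.3% and 44.3% against 40.5% and 39.0%. These shares are estimates from reads that the forms mostly have in common, and no test was made of them.

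**Figure D3:**
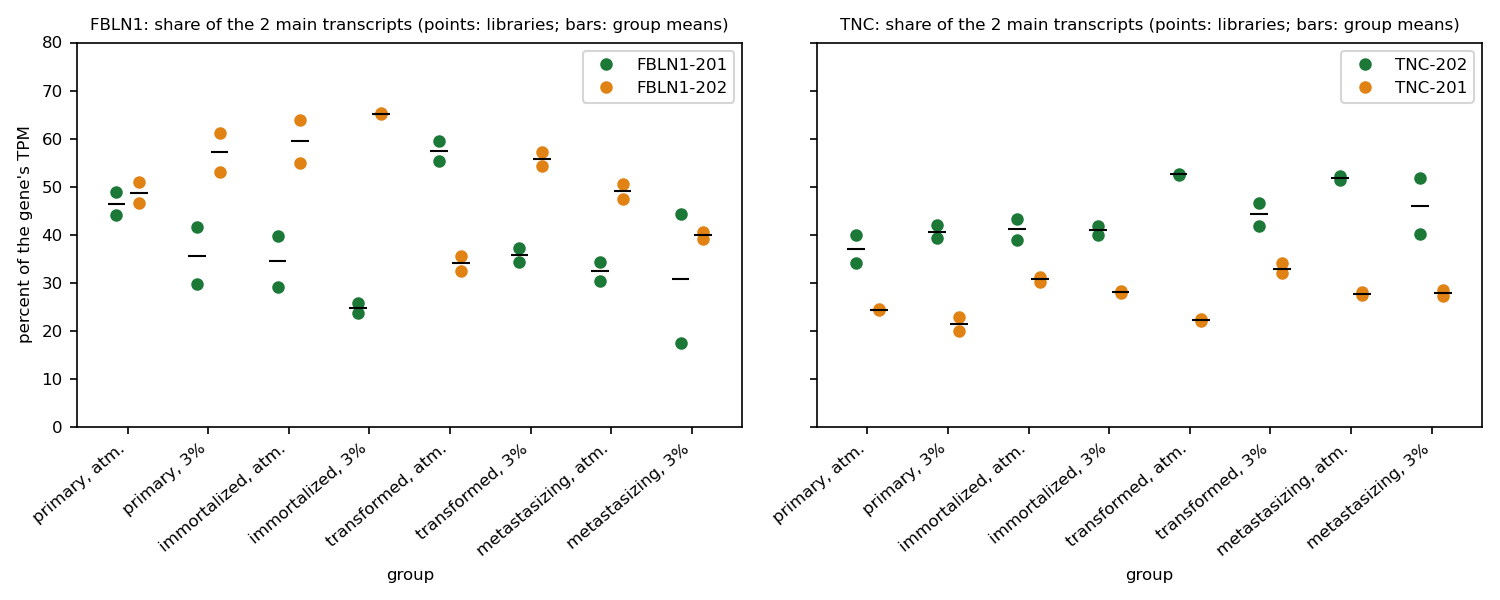
Share of each gene's TPM (y axis, percent) held by FBLN1-201 and FBLN1-202 (left) and by TNC-202 and TNC-201 (right) in the 8 groups (x axis), with 1 point per library and a bar at the group mean. FBLN1-201 lies above FBLN1-202 in both libraries of transformed cells at atmospheric oxygen, and TNC-202 reaches 52.7% and 52.5% there.

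Among the other members a single transcript led. THBS1-201 held 80.9% to 92.6% of THBS1, THBS2-201 held 93.2% to 99.7% of THBS2, and CCN1-201 at least 99.6% of CCN1. THBS3 was more mixed, with 44% to 68.3% on THBS3-201. In primary cells POSTN-209 held 58.4% to 67.2% of POSTN and COMP-202 held 62.7% to 90.0% of COMP.

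In metastasizing cells at 3% oxygen 3 of the 8 members of at least 1 TPM differed more than 2-fold between replicates, all higher in replicate a, and no member did so in the other 7 groups. The ratio of a over b was 8.70 for CCN2, 5.80 for THBS1 and 2.87 for CCN1. Of 27 TGF-beta and YAP pathway genes of at least 1 TPM, 7 were more than 2-fold higher in replicate a, 2 in replicate b and 18 neither. Of all 11843 protein-coding genes of at least 1 TPM there, 432 were higher by that much in a and 869 in b, and of 15 receptor genes 1 and 3. The pathway genes below are named after their values were seen. Those named for a difference are all from the 7 higher in replicate a, and the 2 higher in replicate b are not named. ANKRD1, a nuclear cofactor and YAP target, was at 146 and 1.91 TPM, and F3, tissue factor, at 970.0 and 114 TPM. EDN1, endothelin-1, was at 79.2 and 10.3 TPM, and the ligand gene TGFB2 at 113 and 18.7 TPM. YAP1, with a ratio of 0.984, and SMAD3, with 1.13, differed little. In the atmospheric metastasizing libraries ANKRD1 was at 8.47 and 9.46 TPM, between the values of the 2 replicates at 3% oxygen. HRAS went the other way, being higher in replicate b. Which replicate is typical of the group cannot be told from 2 libraries.

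**Figure D4:**
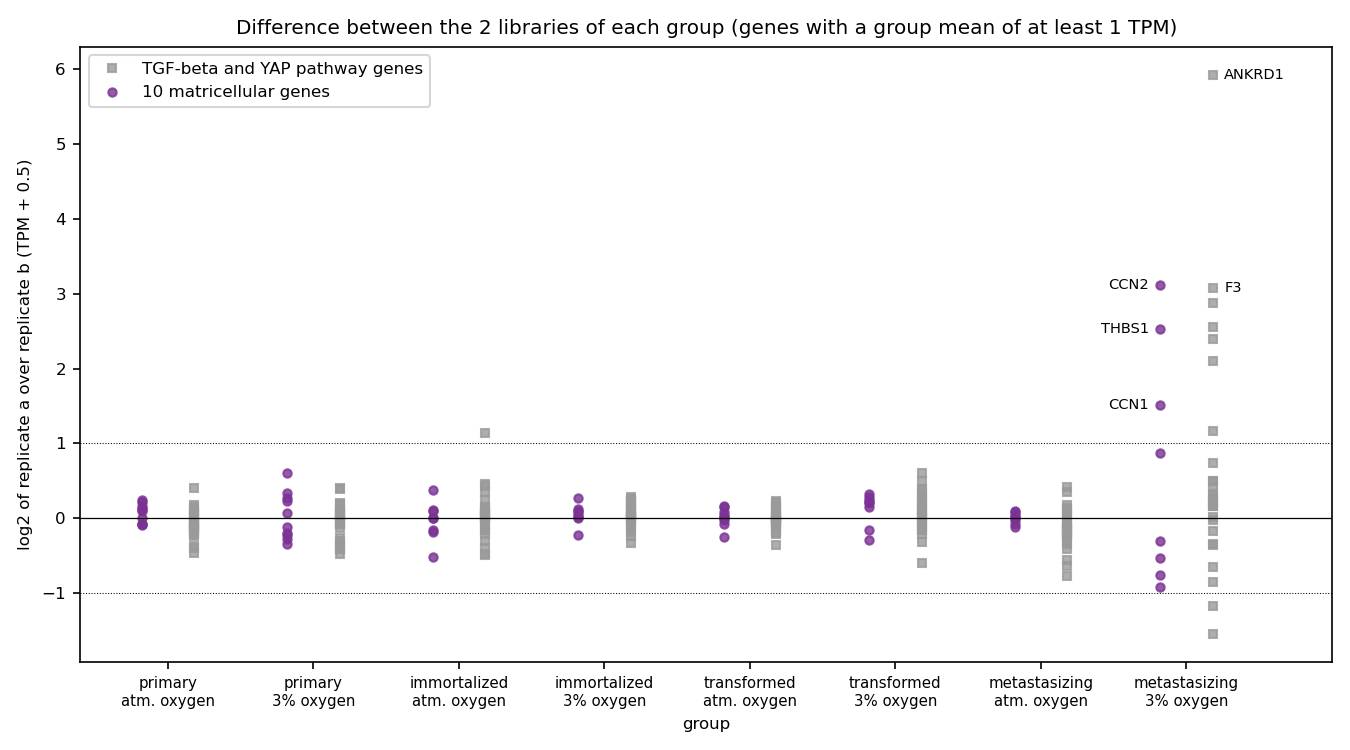
Log2 of replicate a over replicate b (y axis, TPM + 0.5) for the 10 members (purple circles) and the TGF-beta and YAP pathway genes (grey squares) in each of the 8 groups (x axis), 1 point per gene with a group mean of at least 1 TPM, with dotted lines at a 2-fold difference. CCN2 at 3.12, THBS1 at 2.53 and CCN1 at 1.52 stand above the line in metastasizing cells at 3% oxygen, and none of the 10 members crosses it in another group. Of the pathway genes only ANKRD1 and F3, higher in replicate a, are labelled.

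The oxygen effects of this group depended on which replicate was kept. For CCN2 the log2 fold change was 1.62 ± 0.68 (adjusted p = 0.0964) with both, 0.06 without replicate a and 3.17 without replicate b. For THBS1 it was 0.21 with both, -1.05 without replicate a and 1.48 without replicate b, so the direction itself depended on 1 library. For THBS2, THBS3 and SPARC the fall was called whichever library was left out, with ranges of -1.84 to -1.31, -1.40 to -1.09 and -1.92 to -1.01, although none of the 3 was called when only the metastasizing libraries were fitted. Of the 13 fibroblast markers 5 were called lower and none higher in the same comparison, against 4.60% of all genes lower, and their part in these falls was not tested.

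The oxygen effects of adjacent stages were also compared directly, and 5 of 28 such member tests were called. Of these, SPARC and THBS3, given above, were at 1 TPM or more in both stages. The other 3, POSTN at both later steps and COMP from primary to immortalized cells, were below 1 TPM in every library of 1 of the stages, so each restates the oxygen effect of the other stage and is no test of a difference. COMP was the 1 of 10 called from primary to immortalized cells, against 1.86% of all genes (0.800% higher). Without the divergent group 4 of 10 were called there, against 3.83% of all genes, COMP with the same limit, THBS1 (1.29, adjusted p = 0.000268), CCN2 (1.32, adjusted p = 0.00135) and TNC (-1.18, adjusted p = 0.00740). THBS1 and CCN2 were lower at 3% oxygen in primary cells and higher in immortalized cells in every library, and TNC was higher and then lower. From immortalized to transformed cells THBS1 (-2.02, adjusted p = 5.99e-06) and CCN1 (-1.06, adjusted p = 0.000220) were then called beside SPARC and POSTN. The share of all genes called there was 14.9% without the divergent group and 12.0% with it.

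In some of these comparisons the median over all genes was away from 0. Whether this was a matter of scaling or of uneven changes among genes was not tested. The median log2 change over all genes tested was 0.22 from immortalized to transformed cells at atmospheric oxygen, 0.11 at 3% oxygen, -0.13 for the oxygen effect in metastasizing cells and 0.11 in immortalized cells, and median-ratio rescaling brought each within 0.01 of 0. Relative to that median, the changes from immortalized to transformed cells at atmospheric oxygen were -4.16 for FBLN1, 3.33 for POSTN and -1.60 for THBS3, and the oxygen changes in metastasizing cells were -1.45 for THBS2, -1.33 for SPARC and -1.12 for THBS3.

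The other genes of the family and its partners were counted from 3 lists, each count being given beside the share of all genes called in either direction. Of 21 other matricellular genes, 13 were tested from immortalized to transformed cells at atmospheric oxygen, with 3 called higher and 8 lower, against 24.3%. The elastic-fibre gene FBLN5 (-4.76), CCN4 (-3.94) and EFEMP1, fibulin-3 (-2.97) fell with FBLN1, as did CCN3 (-2.82). From primary to immortalized cells 3 of 12 were called higher and 2 lower, against 12.2%, among them CCN4 (2.97) and the collagen-binding TGFBI (-3.30), and at 3% oxygen 2 of 9 higher and 1 lower, against 9.23%, EFEMP1 (1.67), CCN3 (1.44) and TGFBI (-1.19). At 3% oxygen the step to transformed cells had 2 of 11 higher and 3 lower, against 16.3%, with FBLN5 at -5.00 and CCN3 at -2.51. From transformed to metastasizing cells limma called none of 10 at atmospheric oxygen (4.12%) and 4 of 11 lower at 3% oxygen (5.92%), EFEMP1 (-2.39), SPOCK1 (-1.92), FBLN7 (-1.66) and CCN3 (-1.16). Between oxygen levels 1 of 9 was called in primary cells (EFEMP1, -2.53), 3 of 12 in immortalized cells (CCN4 -2.94, TGFBI 2.49 and SPOCK1 1.04), 1 of 11 in transformed cells (FBLN7, 1.40) and 3 of 10 in metastasizing cells (SPOCK1 -1.64, TGFBI 1.55 and EFEMP1 -1.33), against 5.30%, 4.91%, 7.48% and 7.66%.

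Of 22 receptor genes, 17 were tested from immortalized to transformed cells at atmospheric oxygen, with none called higher and 6 lower, against 24.3% of all genes (11.2% lower). These included ITGA2, a collagen-binding integrin subunit (-4.92), CD36, the receptor through which THBS1 acts on vessels (-3.93), ITGA8, whose integrin binds tenascin-C (-2.10), and the scavenger receptor LRP1 (-1.68). Between oxygen levels ITGA6, a laminin-binding subunit that also binds CCN proteins, was called higher at 3% oxygen in primary (2.60), immortalized (1.21) and metastasizing cells (2.12), among 1 of 17, 2 of 17 and 2 of 16 receptor genes called, against 5.30%, 4.91% and 7.66% of all genes. CD36 was called lower in immortalized cells (-2.54), and SDC4, a syndecan, higher in metastasizing cells (1.71). In transformed cells 3 of 16 were called, against 7.48%, ITGB8 (1.90) and ITGB3 (1.53) higher and CALR (-1.02) lower. At 3% oxygen 5 of 18 receptor genes were called lower and 1 higher from immortalized to transformed cells, against 16.3%, again with ITGA2 lower (-4.79). From primary to immortalized cells 2 of 17 were called higher and 1 lower at atmospheric oxygen (12.2%), and 2 higher and 4 lower at 3% oxygen (9.23%), with ITGA8 lower at both (-1.90 and -2.42). The step to metastasizing cells had 2 of 16 higher at atmospheric oxygen (4.12%), ITGB8 (1.32) and ITGA4 (1.16), and 3 higher and 3 lower at 3% oxygen (5.92%), with ITGA2 higher (2.12).

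Of 28 TGF-beta and YAP pathway genes, 10 were called from immortalized to transformed cells at atmospheric oxygen, 3 higher and 7 lower, against 24.3% of all genes (13.2% higher and 11.2% lower), with a list median of -0.02. TGFB2 rose (5.14) and TEAD4, a partner of YAP, rose (1.82), while LTBP1, which tethers latent TGF-beta (-3.79), and TGFBR2, its signalling receptor (-1.84), fell. From primary to immortalized cells 4 were called higher and 2 lower, against 12.2%, with TGFB2 (-3.41) and LTBP2 (-2.78) falling and TGFBR3 (2.13) rising. At 3% oxygen 2 were called higher and 2 lower at that step (9.23%), EDN1 being lowest (-3.03), and 1 of 27 higher and 4 lower at the next (16.3%), where TGFB2 rose again (5.10) and LTBP1 fell (-3.21). The last step had AMOTL2 lower (-1.07) at atmospheric and LTBP1 higher (1.56) at 3% oxygen as its only calls, against 4.12% and 5.92%. Oxygen called 1 or 2 of the 28 in any stage, against 4.91% to 7.66% of all genes, SMAD3 in primary (-1.03), AXL in immortalized (1.01) and TEAD1 in transformed cells (1.13), and TEAD2 (-1.14) and LTBP1 in metastasizing cells (1.92).

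Likeness to other genes was described by Pearson's r of log2(TPM + 0.5) over the 16 libraries, among 8767 genes, without a test, since the libraries share stages and lines. The likest genes were SNAI1 (r = 0.940) and HDDC2 (0.936) for THBS1, NREP (0.955) and HSPB1 (0.912) for THBS2, STOM (0.956) and TSHZ1 (0.943) for THBS3, MAF and ALDH1A1 (0.997 each) for COMP, and DBNL (0.963) and SLC25A20 (0.959) for SPARC. They were PTGFR (0.843) and TPRG1L (0.836) for TNC, KRT19 (0.956) and HUNK (0.941) for POSTN, DNAJB1 (0.909) and PNO1 (0.908) for CCN1, NIPAL4 (0.919) and FERMT2 (0.914) for CCN2, and ANK1 (0.988) and TNFRSF11B (0.987) for FBLN1. Among the members themselves r was 0.92 for COMP and POSTN, 0.90 for THBS2 and SPARC, 0.77 for COMP and CCN2, 0.60 for THBS1 and THBS2 and 0.54 for CCN1 and CCN2. Over the 14 libraries outside the divergent group these were 0.92, 0.86, 0.93, 0.66 and 0.35. COMP was over 1 TPM in the 4 primary libraries only, so its r values mostly record primary cells against values near 0.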

How the data were processed

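Stranded poly-A RNA-seq libraries were quantified by the authors with kallisto 0.42.1 against GRCh37 transcripts, and the deposited values are TPM per transcript and library, each library summing to 1000000, with replicates not pooled. The annotation release behind the table was not given in the sources used here. Each column was assigned to a sample by its name, and 0 columns were without a sample. Of 180253 transcripts listed, 151453 matched GENCODE (lifted to GRCh37) and were summed by gene, which kept 88.2% to 90.1% of the TPM per library, while 28800 transcripts and 1 stray header line were left out. For THBS2, TNC, CCN1 and COMP the table holds fewer transcripts than the annotation (5 of 15, 11 of 15, 2 of 6 and 3 of 4). TPM keep no depth, so no counting interval could be given and a count test was not used.

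Differences were tested with limma 3.58.1 (R 4.3.3) on log2(TPM + 0.5) in 1 fit of 16 libraries with 8 group coefficients and an intensity trend (8 residual degrees of freedom), with Benjamini-Hochberg adjustment over all protein-coding genes tested. A fold change on this scale understates that of low genes. Tables and figures were made with Python 3.11.15, pandas 2.3.3, numpy 2.4.6 and matplotlib 3.10.9. Groups came from the labels. The letters a and b do not pair libraries by the labels, and deviations of same-letter libraries correlated between -0.155 and 0.226, so no pairing was used. Two-sided tests were used throughout. The members and gene lists were chosen with earlier results of these data known. All 10 members were named in every comparison, as were up to 4 called genes of each list with the largest change, and the 2 genes most like each member. Alternatives covered the pseudocount, the filter, rescaling, the libraries fitted, weights, a replicate block and leaving out each library.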

Additional observations from a re-analysis of the deposited data

Results flagged for a closer look

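Limma called a difference of the oxygen effect between adjacent stages in 5 cases. In 2 of them the gene was at 1 TPM or more in both stages. For THBS3 the difference was -1.47 (log2), metastasizing minus transformed, both 3% libraries of metastasizing cells lying below both atmospheric ones. The THBS3 call rests on the divergent group and was lost when only the groups compared were fitted (limma adjusted p = 0.0219). For SPARC the difference was -1.80, transformed minus immortalized. In the other 3 the gene was below 1 TPM in every library of 1 of the stages, so the value restates the effect of the other stage and is no test of a difference. These were POSTN at -3.21, transformed minus immortalized, and at 2.50, metastasizing minus transformed, and COMP at 1.38, immortalized minus primary.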

How the results depend on the processing

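Of 13 counts of called members, 140 alternative values without a library left out stayed within 1.5 times and 26 did not, and of 117 single changes 1439 alternative values kept direction and side of the threshold, 30 gained a call, 21 lost one and 5 turned. The causes were not tested. With a pseudocount of 0.1 TPM the count for the oxygen effect in primary cells went from 1 to 0, and that for its difference between immortalized and primary cells from 1 to 0. Without a filter the count from transformed to metastasizing cells at atmospheric oxygen went from 2 to 1. With a filter of 5 TPM the step from primary to immortalized cells at 3% oxygen went from 2 to 1 and the immortalized minus primary difference to 0, where fewer members were tested. Median-ratio rescaling and quantile normalization each gave 2 for primary cells, THBS2 being added. Fitting only the groups compared gave 0 for the oxygen effect in primary and in metastasizing cells, 5 from immortalized to transformed cells at atmospheric oxygen, 0 from transformed to metastasizing cells at 3% oxygen, and 2, 4 and 0 for the differences of the oxygen effect along the 3 steps. Array weights gave 5, 0, 2 and 4 for the same stage steps and the first pair of differences, and testing all genes gave 0 for the first difference.

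The replicate block gave 1 from transformed to metastasizing cells at atmospheric oxygen and 0 for the immortalized minus primary difference. A crossed replicate block, chosen after seeing the data because the same-letter correlation was -0.150 in primary cells, gave the same counts, 1 and 0. No other count moved by over 1.5 times under the block. Also added after seeing the data, the fit without the metastasizing libraries at 3% oxygen gave 5 from immortalized to transformed cells at atmospheric oxygen and 4 for each of the first pair of differences. The shares of all genes called rose too, to 25.4%, 3.83% and 14.9%, from 24.3%, 1.86% and 12.0% with all libraries.

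With all libraries kept, direction turned in 5 cases. Median-ratio rescaling gave 0.06 for the oxygen effect on TNC in metastasizing cells, -0.01 for THBS2 from immortalized to transformed cells at atmospheric oxygen and -0.04 for CCN1 at the same step at 3% oxygen. Quantile normalization gave 0.01 for CCN1 from primary to immortalized cells at 3% oxygen and -0.21 for the SPARC difference between metastasizing and transformed cells. Over coding transcripts alone, a choice also added later, the SPARC-201 share was 28.3% and 29.1% in primary, 25.5% and 22.3% in immortalized, 27.0% and 42.6% in transformed and 28.1% and 28.4% in metastasizing cells (atmospheric, then 3% oxygen), and the FBLN1-201 share was 35.8% in metastasizing cells at atmospheric oxygen.

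Leaving out 1 library at a time, the oxygen effect in metastasizing cells ranged from -1.05 to 1.48 for THBS1, -0.29 to 1.23 for CCN1, -0.22 to 0.53 for FBLN1 and -0.50 to 0.37 for TNC. In other stages it ranged from -0.26 to 0.01 for CCN1 in primary, -0.13 to 0.05 for THBS2 in immortalized and -0.14 to 0.03 for FBLN1 in transformed cells. At 3% oxygen CCN1 ranged from -0.22 to 0.05, -0.05 to 0.17 and -0.24 to 1.28 along the steps, and the last step ranged from -1.15 to 1.96 for CCN2 and -0.23 to 0.68 for SPARC. The metastasizing minus transformed difference ranged from -0.30 to 2.82 for CCN2, -0.17 to 0.59 for FBLN1, -0.43 to 0.48 for SPARC and -0.83 to 0.03 for TNC, and the immortalized minus primary one from -0.34 to 0.26 for FBLN1. Counts ranged from 1 to 2 for the oxygen effect in primary and 3 to 6 in metastasizing cells, from 3 to 5 at the step to transformed cells and 1 to 2 at the step to metastasizing cells at atmospheric oxygen, from 0 to 4 at the latter at 3% oxygen, and from 0 to 4, 2 to 4 and 2 to 6 for the differences. The highest counts of 4 to 6 came without a metastasizing library at 3% oxygen. With 2 libraries per group and unknown depth, small changes could not be resolved.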
